A study of Caenorhabditis elegans with 2 samples.

Results

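Operon-like gene runs on the autosomes of the nematode Caenorhabditis elegans were examined for binding of DPL-1, with the first gene of each run set against the downstream genes. A run was 2 or more neighbouring protein-coding genes on the same strand in which each gene started 0 to 300 bp after the end of the one before it. On chromosomes I to V this rule found 1748 runs with 3964 genes, of 17242 autosomal protein-coding genes in all. They held 1748 first genes and 2216 downstream genes, and 13278 autosomal genes lay outside them. Of the runs, 1409 had 2 genes, 245 had 3, 68 had 4 and 26 had 5 or more, up to 7. The rule used gene positions and no binding value, and no list of experimentally mapped operons was used, so a run is operon-like by position only.

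Binding was read from peak lists of a ChIP-seq experiment (chromatin immunoprecipitation and sequencing) on whole, mixed-sex L4 larvae of strain OP105. This strain carries the transgene wgIs105, in which dpl-1 is fused to TY1, EGFP and FLAG tags, together with unc119 in an unc119(ed3) background. There is 1 group with 2 biological replicates and no untagged or untreated group among the samples, so conditions could not be compared. Whole animals mix all tissues, and binding in a few cell types cannot be told apart from weak binding in many. The list used for calls holds the 3369 peaks kept by a cutoff on the irreproducible discovery rate (IDR) between replicates, 2978 of them with an autosomal summit. A gene was called bound where such a summit, the highest point of a peak, lay between 500 bp before and 200 bp after one of its annotated transcript starts. Read depth is unknown because the lists carry no counts, and the peak signal, a value made by the authors, has a scale not given in the sources used here. With 1 group no test over samples was possible, so shares are given with exact 95% Clopper-Pearson intervals, which cover the counting of genes only, and with their value in each replicate.

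In many worm operons a single promoter in front of the first gene drives a transcript that covers several genes. The downstream messages are then cut free and receive the SL2 spliced leader at a 3′ splice site that closes a short intercistronic gap. Housekeeping and germline genes are common in such clusters. DPL-1, the DP protein of the worm, pairs with E2F factors to contact DNA and is a subunit of DRM, the worm form of the DREAM complex, which holds cell cycle genes in check.

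The summits of the 5 strongest first genes on chromosomes II to V are printed to show the DNA in front of these runs. Each line gives the summit base and 50 bp on either side on the coding strand of the gene (ce11), and capitals mark a match to 1 of 4 forms of the E2F site on either strand, which are TTCCCGC, the variant TTCGCGC, the variant TTGCCGC and the variant TTGGCGC. None of these bases lies in an annotated exon. The windows are chrIII:10759197-10759297 (+ strand) for tasp-1, chrII:4999301-4999401 (+ strand) for citk-2, chrV:10897323-10897423 (- strand) for sec-61.G, chrII:4851771-4851871 (+ strand) for dnj-9 and chrII:14059919-14060019 (+ strand) for rpb-11.
tasp-1: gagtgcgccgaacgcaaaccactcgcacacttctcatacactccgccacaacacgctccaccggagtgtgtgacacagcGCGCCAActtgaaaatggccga
citk-2: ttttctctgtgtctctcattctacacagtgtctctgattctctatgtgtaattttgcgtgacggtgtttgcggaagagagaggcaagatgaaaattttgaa
sec-61.G: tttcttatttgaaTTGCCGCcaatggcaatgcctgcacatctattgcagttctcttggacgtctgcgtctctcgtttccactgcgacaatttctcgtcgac
dnj-9: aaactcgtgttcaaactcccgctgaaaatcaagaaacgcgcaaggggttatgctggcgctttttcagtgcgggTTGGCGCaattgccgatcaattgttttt
rpb-11: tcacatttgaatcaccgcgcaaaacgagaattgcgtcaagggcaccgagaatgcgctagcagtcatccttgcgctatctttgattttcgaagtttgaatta
The windows of tasp-1, sec-61.G and dnj-9 hold 1 match each, and those of citk-2 and rpb-11 hold none. Over all first-gene summits the share with a match, in wider windows, was lower (22.8%, given with the motif counts).

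The gaps inside runs fall into those with and those without a summit, and both kinds are printed on the coding strand from the base after the upstream gene to the base before the downstream gene. Shown for comparison with the summits above are the gaps of 51 to 150 bp directly behind the same first genes, and the gap behind citk-2 is wider. They had no IDR summit, and capitals mark the 3′ splice site letters TTTCAG where a gap ends in them. They lie at chrIII:10763022-10763130 (+ strand, tasp-1 to dpy-28), chrV:10896544-10896657 (- strand, sec-61.G to F32D8.13), chrII:4857821-4857922 (+ strand, dnj-9 to F11G11.5) and chrII:14060625-14060738 (+ strand, rpb-11 to W01G7.4).
tasp-1 to dpy-28: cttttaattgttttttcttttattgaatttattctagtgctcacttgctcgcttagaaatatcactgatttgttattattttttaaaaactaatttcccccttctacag
sec-61.G to F32D8.13: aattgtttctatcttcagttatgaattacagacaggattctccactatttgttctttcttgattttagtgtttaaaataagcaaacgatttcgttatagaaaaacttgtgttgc
dnj-9 to F11G11.5: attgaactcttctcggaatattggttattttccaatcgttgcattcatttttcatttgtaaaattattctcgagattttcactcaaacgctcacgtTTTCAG
rpb-11 to W01G7.4: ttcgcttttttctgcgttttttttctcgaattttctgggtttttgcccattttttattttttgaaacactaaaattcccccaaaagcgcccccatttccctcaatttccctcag
They span 102 to 114 bp and hold no E2F match, and 1 of the 4 ends in TTTCAG.

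The following gaps each held a strong summit that counted for the gene behind the gap, and they are examples from the 10 strongest downstream genes. Capitals mark E2F matches, and TTTCAG where it closes a gap. The gaps are chrIII:4757022-4757259 (+ strand, rbg-3 to fbxl-2), chrV:11521555-11521702 (+ strand, C55A6.11 to pafo-1) and chrII:7945207-7945495 (- strand, ZK669.5 to dbt-1).
rbg-3 to fbxl-2: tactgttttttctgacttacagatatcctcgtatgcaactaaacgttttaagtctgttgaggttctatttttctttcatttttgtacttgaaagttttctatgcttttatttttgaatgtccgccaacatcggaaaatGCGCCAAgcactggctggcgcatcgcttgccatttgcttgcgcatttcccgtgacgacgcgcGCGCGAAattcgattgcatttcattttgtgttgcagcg
C55A6.11 to pafo-1: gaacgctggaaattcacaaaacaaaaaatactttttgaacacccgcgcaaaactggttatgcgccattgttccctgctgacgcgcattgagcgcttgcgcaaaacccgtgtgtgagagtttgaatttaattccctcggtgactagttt
ZK669.5 to dbt-1: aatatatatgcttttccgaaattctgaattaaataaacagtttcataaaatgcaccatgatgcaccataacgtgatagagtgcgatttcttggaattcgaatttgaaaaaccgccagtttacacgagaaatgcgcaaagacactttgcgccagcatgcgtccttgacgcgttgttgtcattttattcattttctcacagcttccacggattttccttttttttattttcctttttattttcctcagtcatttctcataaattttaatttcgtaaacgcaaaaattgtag
They span 148 to 289 bp, and only the gap in front of fbxl-2 holds E2F matches, 2 of them.

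First genes were bound about 4 times as often as downstream genes. An IDR summit lay at 581 of 1748 first genes, 33.2% (31.0 to 35.5), and at 184 of 2216 downstream genes, 8.30% (7.19 to 9.53), where 14.5% of all autosomal protein-coding genes had one. Genes outside the runs were bound at 13.02% (1729 of 13278), between the other two. The difference between first and downstream genes was 24.9 percentage points, with 22.4 to 27.5 from the exact intervals. It was 23.4 points with the strongest peaks of replicate 1 (31.6% of first and 8.21% of downstream genes) and 23.6 points with those of replicate 2 (31.8% and 8.17%), as many peaks being taken from each replicate as the IDR list holds. Of all autosomal genes, 14.1% were bound in each replicate list taken alone.

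**Figure D1:**
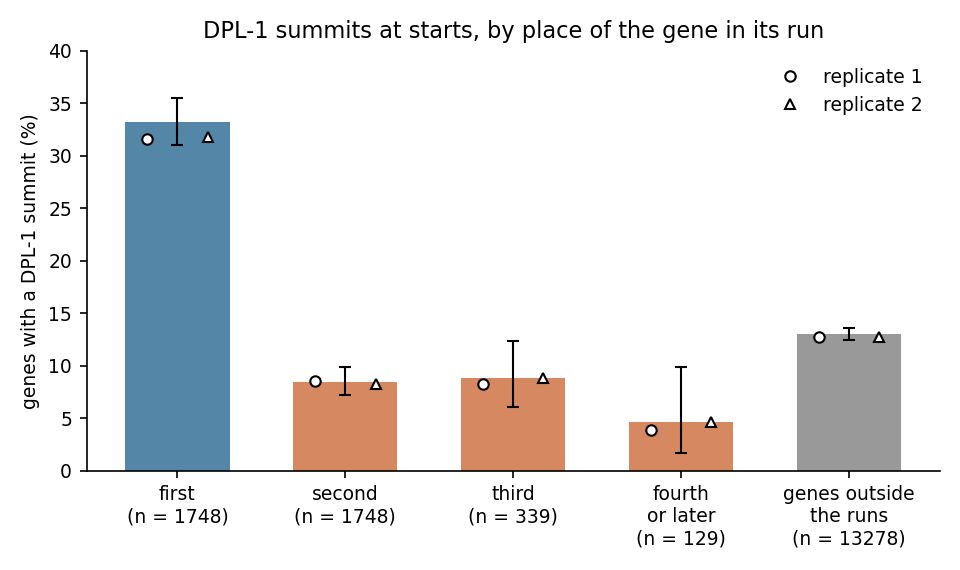
Share of genes with a DPL-1 summit, in percent, by place in the run and for genes outside the runs. Bars are the IDR list with exact 95% intervals, circles replicate 1 and triangles replicate 2, and only the first place stands above the genes outside the runs.

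The contrast lay between the first place and all later ones. Second genes were bound at 8.47% (148 of 1748), genes in the third place at 8.85% (30 of 339) and genes in the fourth place or later at 4.65% (6 of 129, interval 1.73 to 9.85), with overlapping intervals. Within single runs, 527 runs had a summit at the first gene only, 124 at downstream genes only, 54 at both, and 1043 at neither. Of the 651 runs with a summit at one kind only, 80.95% (77.7 to 83.9) had it at the first gene, against 80.4% in replicate 1 and 80.6% in replicate 2. Downstream genes were bound at similar shares whether their first gene was bound (57 of 796, 7.16%, interval 5.47 to 9.18) or not (127 of 1420, 8.94%, interval 7.51 to 10.5).

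The direction was the same on each autosome. First genes were bound at 47.4% on chromosome III, 39.9% on I, 35.0% on IV, 29.4% on II and 20.0% on V, and downstream genes at 8.55% on III, 13.7% on I, 7.57% on IV, 7.33% on II and 5.11% on V. All autosomal genes followed a like order, with 22.1% on III, 21.2% on I, 12.8% on IV, 13.2% on II and 8.49% on V. Shares were higher in longer runs up to 4 genes for both kinds of gene. They were 30.7% of first genes in runs of 2, 41.2% in runs of 3, 48.5% in runs of 4 and 53.8% (14 of 26, interval 33.4 to 73.4) in runs of 5 or more. For downstream genes they were 6.81%, 10.6%, 13.2% and 7.96% in the same classes. Runs whose genes all carry a single family name were nearly free of summits, with 4 of 122 first genes (3.28%) and 0 of 144 downstream genes bound, where the interval for 0 of 144 reaches 2.53%.

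**Figure D2:**
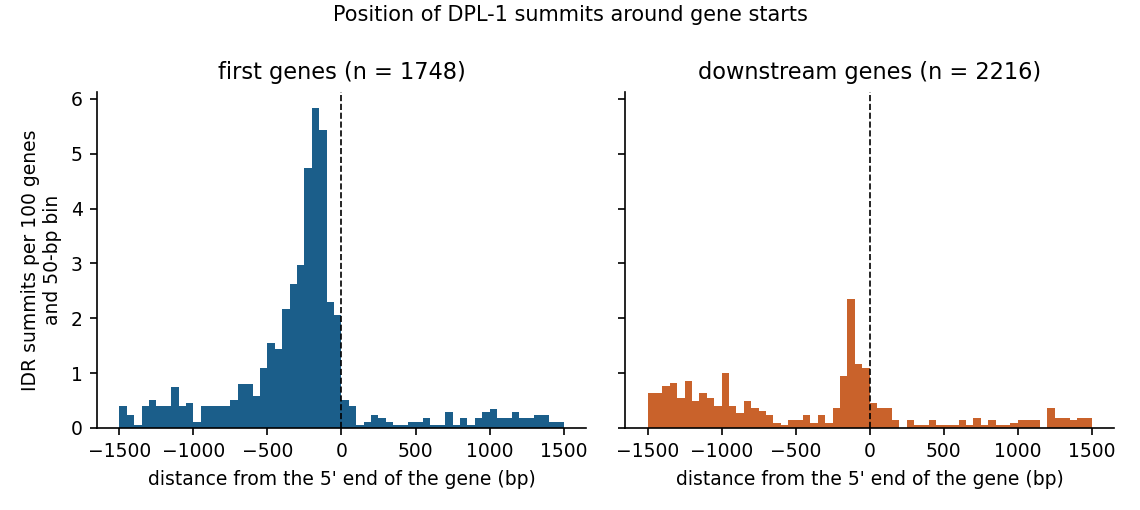
IDR summits per 100 genes in 50-bp bins, by distance in bp from the 5′ end of first genes (left) and downstream genes (right). The tallest bin holds 5.84 summits per 100 first genes at 200 to 150 bp upstream, and 2.35 per 100 downstream genes at 150 to 100 bp upstream.

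Summits sat upstream of both kinds of gene, and closer to downstream genes. The median summit lay 190 bp upstream of bound first genes and 113 bp upstream of bound downstream genes, and 96.4% and 83.2% of them were on the upstream side. Of the 184 bound downstream genes, 123 (66.8%) had their summit in the gap in front of the gene and 38 (20.7%) inside the downstream gene. A further 15 had it in an exon and 7 in an intron of the gene before. Only 1 downstream gene shared its summit with the window of its own run's first gene, so the 2 counts hardly draw on the same peaks.

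First-gene summits were often shared with a gene outside the run. This was so for 299 of the 581 bound first genes (51.5%) and for 4 of the 184 bound downstream genes (2.17%), and position alone makes such sharing less likely inside a run, where the upstream neighbour points the same way. First genes with an opposite-strand neighbour within 1000 bp upstream were bound at 59.7% (319 of 534), and genes outside the runs with such a neighbour at 34.9% (944 of 2704). Where the upstream neighbour was on the same strand and over 300 bp away, 18.5% of first genes (122 of 658, interval 15.6 to 21.7) and 6.56% of genes outside the runs (389 of 5927) were bound. When summits shared with a gene outside the run were left out, 16.4% of first genes and 8.17% of downstream genes were bound, a difference of 8.25 points. The part of shared promoters in the larger share at first genes was not tested further.

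In the IDR list, binding of both kinds of gene differed with the width of the gap. Gaps had a median of 114 bp, and 1234 of the 2216 (55.7%) were 51 to 150 bp wide. Behind gaps of that width 4.21% of downstream genes were bound (52 of 1234, interval 3.16 to 5.49; 3.81% in replicate 1 and 4.46% in replicate 2). Behind gaps over 150 bp, the widest of them 300 bp, the share was 14.8% (118 of 798, interval 12.4 to 17.4; 15.04% in replicate 1 and 14.04% in replicate 2), close to the 14.5% of all autosomal genes. First genes moved the other way. Those followed by a gap of 51 to 150 bp were bound at 42.8% (404 of 944; 40.04% and 41.1% in replicates 1 and 2), and those followed by a gap over 150 bp at 19.6% (129 of 659; 19.6% and 18.7%). These bounds of the gap were chosen after the values were seen. In the relaxed pooled list the difference at downstream genes was absent, with 39.7% bound behind gaps of 51 to 150 bp and 39.97% behind wider ones, while first genes were at 66.9% and 39.6%.

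In 50-bp steps the change came between 150 and 200 bp. Downstream genes were bound at 7.61% for gaps up to 50 bp, 4.27% up to 100 bp, 4.17% up to 150 bp, 10.7% up to 200 bp, 15.9% up to 250 bp and 17.9% up to 300 bp, each step starting above the one before it. First genes, by the gap to the second gene, were bound at 33.1%, 41.5%, 43.9%, 22.1%, 19.2% and 17.3% in the same steps. In runs with every gap over 150 bp the difference between first and downstream genes was 7.53 points (18.3% and 10.7%), and in runs with every gap from 51 to 150 bp it was 37.5 points (41.8% and 4.27%). Just past the limit of the rule, in the next 50 bp of gap width, 15.9% of genes (39 of 245) were bound, against 17.9% just inside it. The window around each start had the same size at every gap width, and the cause of the change with gap width was not tested. At still wider gaps the share fell again, to 5.11% of genes more than 2 kb behind a same-strand neighbour.

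**Figure D3:**
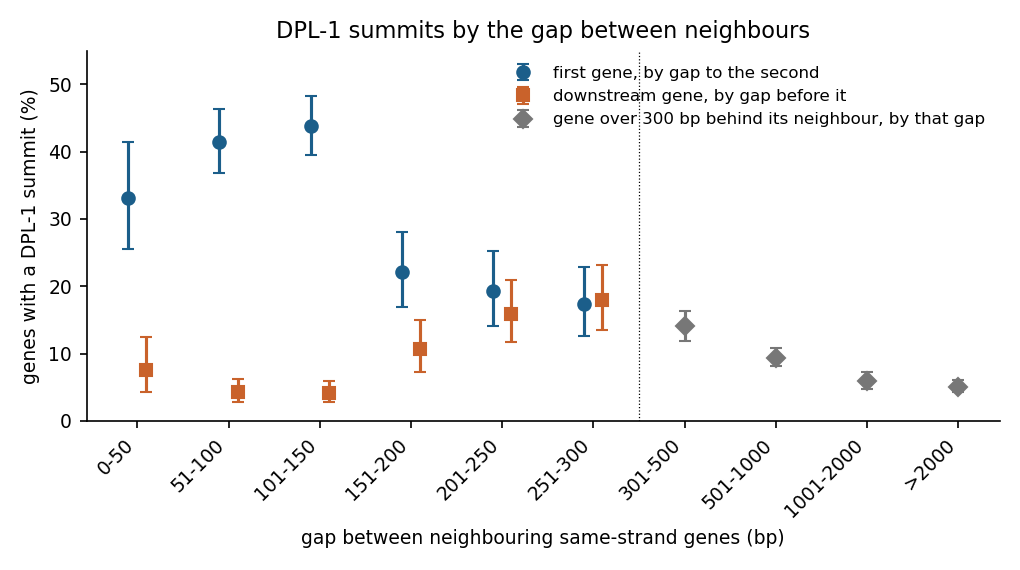
Share of genes with an IDR summit, in percent with exact 95% intervals, by the gap in bp between neighbouring same-strand genes. First genes (circles) and downstream genes (squares) are far apart up to 150 bp and overlap above 200 bp. The diamonds right of the dotted line are genes more than 300 bp behind their neighbour, first genes of runs included.

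The bases in front of the genes differed between the same classes of gap. The letters AG, which end a 3′ splice site, stood directly before 53.6% of downstream genes behind gaps of 51 to 150 bp and before 25.4% behind gaps over 150 bp, where genes outside the runs had 24.1%. The longer match TTTCAG, read on the coding strand, stood before 18.96% and 10.5% of these downstream genes and before 10.9% of genes outside the runs. It also stood before 30.5% of bound first genes (177 of 581) and 14.4% of first genes that were not bound (168 of 1167). For AG alone the shares were 54.2% of bound first genes (315 of 581) and 29.3% of the others (342 of 1167). An annotated start directly behind TTTCAG can be a trans-splice site rather than the place where transcription begins. Among downstream genes with that match, 5.13% (12 of 234) were bound behind gaps of 51 to 150 bp and 26.2% (22 of 84) behind gaps over 150 bp. Without the match the shares were 4% (40 of 1000) and 13.4% (96 of 714).

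Gaps that held a summit also differed in base composition among the narrow ones. Gaps of 51 to 150 bp with a summit inside had a median GC content of 41.3% (n = 18), and those without had 28.8% (n = 1216). For gaps over 150 bp the medians were 33.5% (n = 105) and 33.3% (n = 693), with quartiles that overlapped almost fully. An E2F match occurred in 27 of the 105 wide gaps with a summit (25.7%) and in 44 of the 693 without (6.35%). Among the narrow gaps it occurred in 1 of 18 with a summit (5.56%) and in 17 of 1216 without (1.40%). These counts were not adjusted for width within a class, and over 150 bp bound genes were more frequent behind wider gaps.

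E2F matches were about as frequent at both kinds of summit. Within 100 bp of the summit, 22.8% of summits at first genes (122 of 536), 21.2% of those at downstream genes (39 of 184) and 20.3% of all autosomal summits held one of the 4 forms, against 6.45% of promoters of the same length over all autosomal genes. The CHR element (TTCGAA or TTTGAA, either strand), the DNA element bound by LIN-54 of the DRM complex, was found at 58.2% of first-gene summits, 56.0% of downstream summits, 50.4% of all autosomal summits and 57.4% of those promoters. A match is a run of letters and not a measured site.

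Signals of bound genes overlapped widely. The median IDR signal was 169 at first genes (quartiles 91.7 and 330), 132 at downstream genes (68.2 and 372) and 152 at genes outside the runs. The ratio of the medians, first over downstream, was 1.28, and it was 1.29 from replicate 1 and 1.33 from replicate 2. A signal of at least 1000 was reached at 30 first genes (5.16% of the bound) and 9 downstream genes (4.89%). Of the bound genes, 496 of 581 first genes (85.4%) and 143 of 184 downstream genes (77.7%) were bound in both replicate lists. Genes with no IDR summit had a summit of the relaxed pooled list, which takes in far weaker peaks, at 33.2% of first genes (388 of 1167) and 34.4% of downstream genes (698 of 2032). Of all autosomal genes without an IDR summit, 25.8% (3805 of 14748) had a relaxed pooled one, and of all autosomal genes 36.5% had one.

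The strongest first genes head runs whose later genes had no summit. The highest signal, 3495, lay 60 bp upstream of tasp-1, which encodes a threonine aspartase, with 1524 in replicate 1 and 1951 in replicate 2. Its neighbour dpy-28, a condensin subunit that also acts in dosage compensation, starts 109 bp behind it and had no summit in the IDR list or in the relaxed pooled list. At citk-2 the signal was 2736 (1485 and 1282 in replicates 1 and 2), and F59A6.10, F59A6.4 and F59A6.3 behind it had none. At sec-61.G, a subunit of the translocon, it was 2129 (1028 and 1117), with F32D8.13 behind it at a gap of 114 bp. The translation initiation factor gene eif-3.C reached 2122 (1033 and 1055) and the chaperone gene dnj-9 2028 (879 and 1158). Both replicates placed all of these summits high, but the ranking that picked them was made from the same 2 replicates.

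The other 5 of these 10 runs had first-gene signals between 1550 and 1908. The alpha-tubulin gene tba-2 had a signal of 1908 (926 and 1011 in replicates 1 and 2), and rpb-11, a subunit of RNA polymerase II, had 1689 (814 and 853). The kinetochore gene kbp-4 had 1668 (836 and 841) at a summit it shares with rab-18, and the polarity gene par-2 follows it after 100 bp. The ribosomal gene rps-12 and the spindle gene ska-3 head 2 runs that point away from each other and share a single summit of 1550 (644 and 919). Of the 13 downstream genes in these 10 runs, 0 had an IDR summit and 5 had a relaxed pooled one, as did 39.8% of all downstream genes. At the 8.30% of all downstream genes that were bound, about 1 of 13 would be, so these runs do not stand apart by this count.

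The longest runs with a bound first gene had their only start summits at the front. The run of 7 genes begins with rpb-6, a subunit shared by RNA polymerases, whose signal was 191 (116 in replicate 1 and 83.3 in replicate 2), 319 bp upstream of the gene. It continues with dohh-1, an enzyme of hypusine synthesis, the mitochondrial ribosomal genes dap-3 and mrps-22, the mannosyltransferase gene algn-9 and the nuclease genes crn-3 and crn-5, across gaps of 87 to 161 bp. The 6-gene runs begin with ztf-7 (signal 371; 149 and 226 in the replicates), suco-1 (236; 93.1 and 142), ndus-8 (232; 117 and 123) and ril-1 (102; 44.8 and 64.5). Among their downstream genes are smg-4 of nonsense-mediated decay, behind ztf-7, and the RNA editing gene adr-2 and the Derlin gene der-2, behind ndus-8. None of the 26 downstream genes of these 5 runs had an IDR summit. A relaxed pooled summit lay at 7 of them, where 39.8% of all downstream genes had one. Over all runs of 5 or more genes, 7.96% of downstream genes (9 of 113) were bound. At that share only a few of 26 would be, so these 5 runs do not stand apart by this count.

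**Figure D4:**
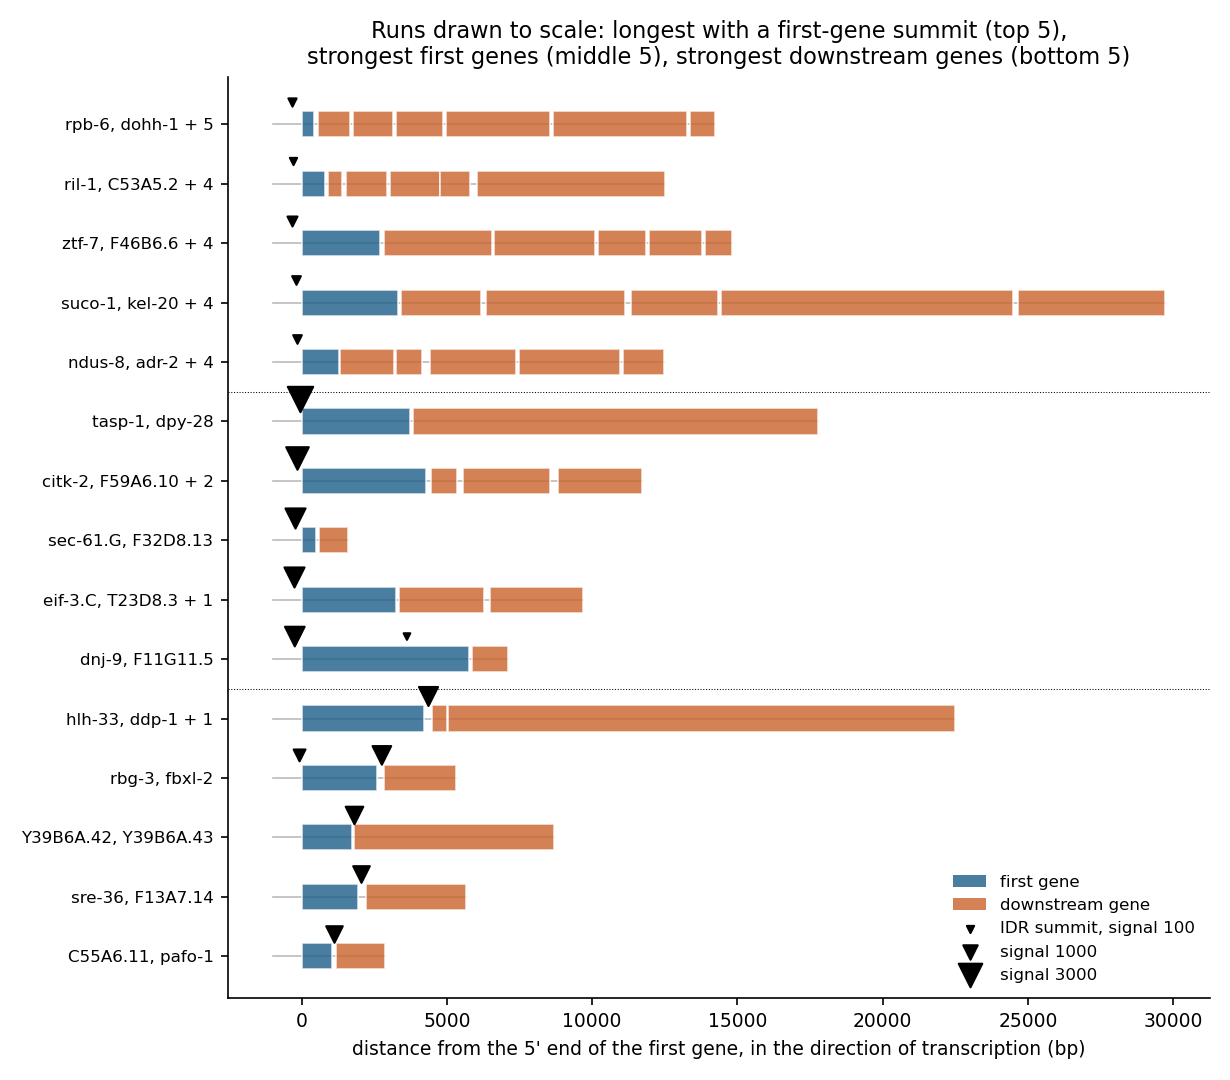
Genes of 15 runs to scale, by distance in bp from the 5′ end of the first gene in the direction of transcription, with first genes in blue, downstream genes in orange, and IDR summits as triangles sized by signal. The upper 10 runs have a summit in front of the first gene, with a further weak one (signal 53.4) inside dnj-9, and the lower 5 have one in the gap in front of the second gene, where rbg-3 has one of its own too.

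The strongest downstream genes had their summit in the gap, mostly with none at the first gene. The highest was at ddp-1, a small Tim protein of the mitochondrial import system, with 1884 (840 in replicate 1 and 1048 in replicate 2). The F-box gene fbxl-2 had 1799 (846 and 937) in a gap of 238 bp. Its first gene, rbg-3, was bound as well, at 606 (274 and 355), so this run has a peak at each start. Y39B6A.43 had 1578 (615 and 979) at a gap of only 75 bp, F13A7.14 had 1391 (635 and 778) at 265 bp, and pafo-1, a component of the PAF1 complex, had 1379 (722 and 699) at 148 bp. All 5 were high in both replicates, from which their ranking was also made.

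The next 5 were lower and of varied function. lrpr-1 had 1301 (698 and 611), dbt-1, an enzyme subunit of branched-chain amino acid breakdown, had 1211 (603 and 609), and pash-1, the partner of Drosha in microRNA processing, had 1194 (761 and 459). The prefoldin gene pfd-6 had 1170 (610 and 554) and rpn-11, a proteasome lid subunit, had 997 (561 and 433). Of these 10 genes, 7 lie behind gaps over 150 bp, and the first gene had no IDR summit in 9 of the 10 runs. Over all 184 bound downstream genes, 118 (64.1%) lie behind gaps over 150 bp, and the first gene was not bound for 127 (69.0%). Of all 2216 downstream genes, bound or not, 798 (36.0%) lie behind such gaps. The first gene was not bound for 1420 of the 2216, so an unbound first gene is common among downstream genes of any kind.

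Housekeeping and cell cycle genes showed the first-gene contrast in most lists. Over the 12 lists combined, 106 of 132 first genes (80.3%, interval 72.5 to 86.7), 18 of 109 downstream genes (16.5%, interval 10.1 to 24.8) and 229 of 305 genes outside the runs (75.1%) were bound. The shares were 76.5% of first and 16.5% of downstream genes in replicate 1, and 79.5% and 15.6% in replicate 2. List members behind gaps of 51 to 150 bp were bound in 4 of 82 cases (4.88%, interval 1.34 to 12.02), and those behind gaps over 150 bp in 11 of 17 (64.7%, interval 38.3 to 85.8). Behind gaps of up to 50 bp it was 3 of 10 (30%, interval 6.67 to 65.2). Of all downstream genes 8.30% were bound. By gap, these were 4.21% at 51 to 150 bp, 14.8% over 150 bp and 7.61% up to 50 bp. The list share at 51 to 150 bp was thus near that of all downstream genes. Of the 91 downstream members without a summit, 65 (71.4%) stand behind a first gene that has one, against 36.4% (739 of 2032) of all downstream genes without a summit. In a window from 200 bp before to 100 bp after a start, 37.1% of first (49 of 132) and 12.8% of downstream members (14 of 109) were bound, and with each summit counted for the nearest start alone 53.0% (70 of 132) and 16.5%. Without summits shared outside the run, 32.6% of first members (43 of 132) were bound, and over all alternatives the share was lower at first than at downstream genes in 6 of 217 single-list comparisons. Genes named from these lists beyond the 3 strongest of each were chosen after their values were seen.

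**Figure D5:**
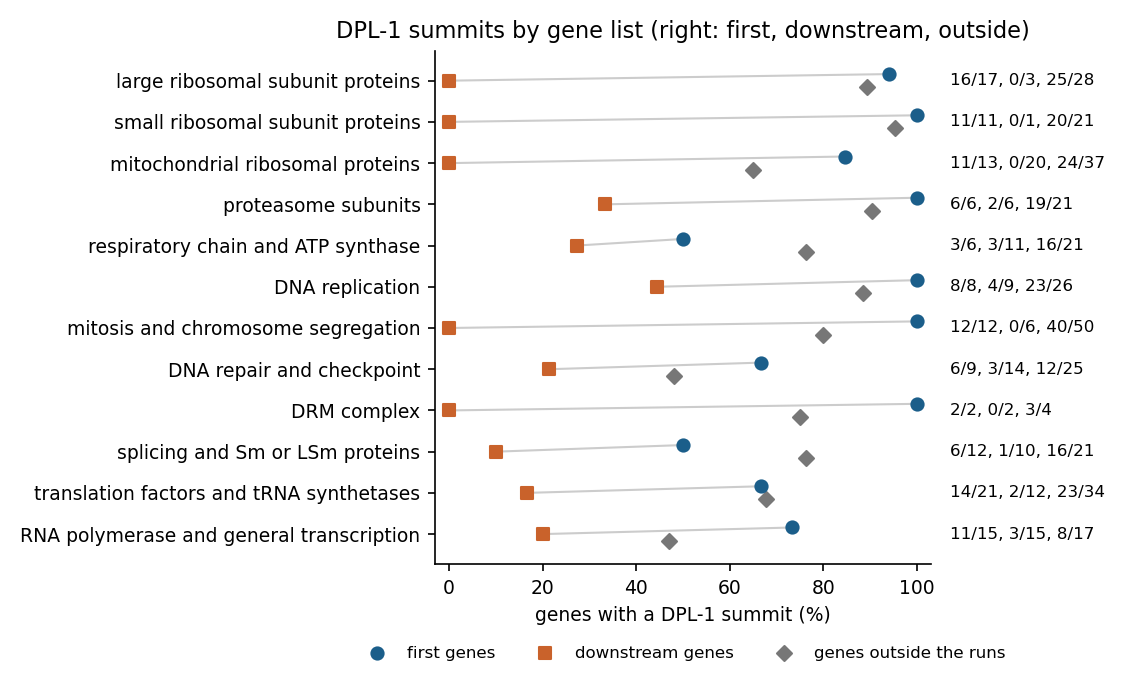
Share of genes with an IDR summit, in percent, in 12 gene lists, for first genes (circles), downstream genes (squares) and genes outside the runs (diamonds), with bound and all genes of each kind at the right. Downstream genes lie below first genes in each list, and several lists hold under 5 downstream genes.

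Nearly all ribosomal protein genes in first place were bound, mostly at summits shared or over 200 bp away. Of the large subunit genes, 16 of 17 first genes, 0 of 3 downstream genes and 25 of 28 genes outside the runs had a summit, led by rpl-20 with 1325 (604 in replicate 1 and 702 in replicate 2), rpl-12 with 1272 (603 and 642) and rpl-15 with 1239 (424 and 821). The small subunit had 11 of 11, 0 of 1 and 20 of 21. In the window from 200 bp before to 100 bp after a start, 2 of 17 large subunit and 2 of 11 small subunit first genes were bound. With the nearest start alone they were 9 of 17 and 4 of 11, and without summits shared outside the run 5 of 17 and 3 of 11. The 4 downstream genes rpl-27, rla-1, rpl-16 and rps-16 all follow bound first genes, with signals of 125 at C53H9.2, 204 at Y37E3.8, 304 at lias-1 and 262 at fib-1. Their gaps were 105 to 119 bp. Behind gaps of 51 to 150 bp 4.21% of all downstream genes were bound, so these 4 genes do not stand apart by this count.

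Mitochondrial ribosomal genes gave the largest downstream group. Of them, 11 of 13 first genes, 0 of 20 downstream genes and 24 of 37 genes outside the runs were bound, and the 20 downstream genes lie in 19 runs. The strongest first gene was mrpl-49 with 326 (182 in replicate 1 and 146 in replicate 2), at a summit shared with rpl-28. Of the 20 downstream genes, 15 follow a bound first gene and 18 a gap of 51 to 150 bp. Behind gaps of that width 4.21% of all downstream genes were bound, so the 0 of 20 does not stand apart by this count. The first genes are of other kinds: W04B5.5 before mrpl-30 had a signal of 660, vps-37 before mrpl-48 had 334, natc-1 before mrps-2 and mrpl-4 had 180, and eif-3.E before mrps-30 had 187.

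Downstream DNA replication genes were bound mostly behind wide gaps. All 8 first genes, 4 of 9 downstream genes and 23 of 26 genes outside the runs were bound. The bound downstream genes mcm-4 (938; 417 in replicate 1 and 532 in replicate 2), mcm-5 (369), rnr-1 (372) and crn-1 (347) lie behind gaps of 207, 276, 203 and 281 bp, and none of their first genes had a summit. The summits of both mcm genes lie in the gap, that of rnr-1 inside the gene near another of its annotated starts, and that of crn-1 in an exon of the gene before. Both mcm genes encode subunits of the replicative helicase, and rnr-1 the large subunit of ribonucleotide reductase. The unbound orc-2, orc-4, pole-2 and ctf-18 lie behind gaps of 134, 111, 145 and 104 bp, and rfc-3 behind one of 271 bp. Their first genes were all bound, with 269 at copz-1, 443 at orc-1, 870 at snrp-3, 485 at gtbp-1 and 467 at C39E9.12. The origin recognition genes orc-1 and orc-4 thus share a run with a summit in front of orc-1.

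In the IDR list, genes of mitosis and of the DRM complex were bound when first and not when downstream. The DRM complex has only 2 genes of each kind in runs. All 12 mitosis genes in first place were bound, among them kbp-4 above, the cyclin B gene cyb-1 with 871 (434 and 456 in replicates 1 and 2) and the spindle checkpoint gene mdf-1 with 542 (237 and 315). None of the 6 downstream ones was (apc-17, mat-3, apc-11, kbp-2, dpy-28 and apc-10), and the first gene was bound in 4 of their 6 runs. In the DRM complex, lin-54 with 1272 (603 and 642) and lin-53 with 970 (447 and 515) are first genes, and lin-54 shares its summit with rpl-12, which heads a run of its own on the other strand. Both other run members are downstream: lin-37 starts 60 bp behind ZK418.5, whose signal was 738 (381 and 354), and lin-52 starts 126 bp behind ZK632.9, whose signal was 52.2 (48.0 and 8.31). The signal of ZK632.9 was low in replicate 2 and the IDR value is near the lowest of that list, 46.4. Both lin-37 and lin-52 had a summit in the relaxed pooled list, though none in the IDR list. Of all downstream genes 8.30% were bound in the IDR list, and 4.21% of those behind gaps of 51 to 150 bp. Of the 6 downstream mitosis genes 5 lie behind gaps of that width, as do lin-37 and lin-52. The unbound downstream genes of these lists are few and do not stand apart by this count. In the window from 200 bp before to 100 bp after a start, 8 of 12 mitosis and 0 of 2 DRM first genes were bound.

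In the remaining lists, too, the share was higher at first than at downstream genes, but not always above that of genes outside the runs. Proteasome genes were bound in 6 of 6 first and 2 of 6 downstream cases, which were rpn-11 and pbs-3, and in 19 of 21 outside the runs. Respiratory chain genes had 3 of 6 first, led by nduf-11 with 933 (533 in replicate 1 and 397 in replicate 2), 3 of 11 downstream and 16 of 21 outside the runs. DNA repair and checkpoint genes had 6 of 9 first, 3 of 14 downstream and 12 of 25 outside. Among them the checkpoint clamp loader gene hpr-17 had 1197 (632 and 564) at a summit shared with F32A11.1. The checkpoint kinase gene chk-1 had 791 (383 and 413), and the downstream nuclease gene fan-1 had 661 (361 and 300.8) behind a gap of 35 bp. The summit of fan-1 lay inside the gene, near another of its annotated starts, and not in the gap. Splicing genes had 6 of 12 first, 1 of 10 downstream and 16 of 21 outside. Translation factors and tRNA synthetases had 14 of 21, 2 of 12 and 23 of 34 in the same order, and RNA polymerase and general transcription genes 11 of 15, 3 of 15 and 8 of 17. First genes of the respiratory chain and splicing lists (50% each) were thus below genes outside the runs (76.2% each). In these lists the downstream members are few, and the intervals of single lists are wide.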

How the data were processed

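Peak lists on ce11 were used: the relaxed list of each replicate (30000 peaks each), the relaxed list of the pooled replicates and the IDR list. Per the deposited file listings, relaxed peaks were called against a control alignment and the IDR list was derived from the pooled and replicate lists. The aligner and the caller behind the lists were not given in the sources used here. Peak signal is a deposited value relative to that control, and the summit offset in bp, also deposited, gave the summit position. Signal tracks and ce10 lists were not used here.

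Genes, transcript starts and gaps came from Ensembl release 115 (WBcel235, the assembly of ce11). A single summit could count for several genes. Replicate values used the 3369 strongest peaks of each replicate, and replicate signals the highest relaxed summit within 100 bp of the IDR summit. Promoters set beside motif windows lay upstream of each gene and were as long as the window, 201 bp for 100 bp either side of a summit. Runs, windows and counting were tested on simulated data. The members, the 12 gene lists and the tests were chosen with earlier results of these data known. Named genes are the genes of the 10 runs with the highest first-gene signal, the 10 downstream genes with the highest signal outside the first gene's window, the genes of the 5 longest runs with a bound first gene, and the 3 strongest run members of each list. Alternatives covered peak lists, windows, assignment of summits, transcript starts, gaps and neighbours. Python 3.11.15, numpy 2.4.6, scipy 1.17.1, pandas 2.3.3 and matplotlib 3.10.9 were used.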

Additional observations from a re-analysis of the deposited data

How the results depend on the processing

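First genes were bound more often than downstream genes under all 19 alternatives, with differences from 7.53 to 37.5 points, and none of the main comparisons changed sign. Within the 12 gene lists, first genes had the lower share in 6 of 217 single-list comparisons, among them DNA repair with the window of 200 bp upstream to 100 bp downstream (1 of 9 first and 2 of 14 downstream genes) and the respiratory chain with a largest gap of 100 bp (3 of 6 and 2 of 3). Of 479 alternative values of gap classes and lists, 66 left their interval. Of 80 alternative values of the main comparisons, 40 lay close to the reported value. Close meant within its interval, or for the signal ratio within the standard deviation of the replicate ratios. Leaving out a replicate gave 31.6 to 31.8% of first genes, 8.17 to 8.21% of downstream genes, differences of 23.4 to 23.6 points, 80.4 to 80.6% of one-kind runs with the summit at the first gene, and signal ratios of 1.29 to 1.33. The values below follow the order first genes, downstream genes, difference, share of one-kind runs, where each left its interval. The stronger 50% of IDR peaks gave 23.9%, 5.19% and 18.7 points, and all relaxed pooled peaks 55.4%, 39.8%, 15.6 points and 65.8%. A window of 200 bp upstream to 100 bp downstream gave 17.2%, 6.77%, 10.5 points and 68.9%, and one of 1000 bp upstream 37.99% and 11.7%. Counting a summit for the nearest start alone gave 24.3% of first genes, 16.04 points and 73.9%. A largest gap of 100 bp gave 37.1%, 5.09%, 31.98 points and 92.1%, and one of 500 bp gave 27.8%, 10.1%, 17.7 points and 73.0%. Without genes that have an opposite-strand start within 1000 bp, first genes were at 20.5%, with 12.3 points and 69.9%. Of the alternatives chosen after seeing the data, every gap of 51 to 150 bp gave 41.8%, 4.27%, 37.5 points and 92.7%, every gap over 150 bp gave 18.3%, 10.7%, 7.53 points and 64.1%, and leaving out summits shared outside the run gave 16.4% of first genes, 8.25 points and 64.1%. The CHR element was at 82.3% of first-gene summits within 200 bp. In windows of that width it was at 75.4% of all autosomal summits and 81.1% of promoters. The causes of these shifts were not tested. No paired analysis over samples was possible because the labels give 1 group. Depth is unknown, so a gene without a summit is not shown to lack binding.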
